A study of Mus musculus with 6 samples.

Results

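Malat1, Neat1, Rn7sk and Gm26917 were 4 noncoding rows among 55453 gene rows counted in RNA of mouse aortae, and together they took 4.24% to 5.91% of the counts in each library. They were picked by name for the size of that share, so their levels are a description and carry no test. The difference between genotypes was fitted over the whole table, and it does not stand as independent evidence, because earlier results of these data were known when the rows were chosen and Rn7sk and Gm26917 had already been singled out for their values. The label calls them nuclear, and counts of whole-tissue RNA do not measure where in a cell an RNA lies.

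The homozygous libraries (replicates 2 and 3, n = 2) came from mice with a floxed Srf allele on both chromosomes and the Itga8-CreERT2 driver, and the heterozygous libraries (replicates 1, 2 and 3, n = 3) from mice with 1 floxed Srf allele and the same driver. Srf encodes serum response factor, and CreERT2 is a recombinase that works once tamoxifen is given. Here it is driven from Itga8, an integrin gene of smooth muscle. Both groups were hemizygous for the driver and received 33 mg/kg tamoxifen by intraperitoneal injection on 5 days, with tissue taken 10 days later, so the heterozygous mice can also lose 1 copy of Srf in cells where the driver acts. Inner lining and outer coat were removed from each aorta before freezing, to enrich the muscular media. No label states age, sex or strain. The labels list 6 samples, of which homozygous replicate 1 was not analysed here, and the design text says that 1 homozygous sample was set aside as an outlier.

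Noncoding RNAs of the nucleus act as scaffolds and regulators. Malat1 is a long RNA held in nuclear speckles, bodies rich in splicing factors, and RNase P cuts its 3′ end. Neat1, from the neighbouring gene, is the backbone of paraspeckles, bodies in which it is bound by Sfpq, Nono and related proteins. Rn7sk is 7SK, a short RNA made by RNA polymerase III that holds the elongation kinase P-TEFb inactive with Hexim1, Larp7 and Mepce. Gm26917 is annotated as a long intergenic noncoding RNA, and no role is given to it in the sources used here. The libraries were made with a kit that selects polyadenylated RNA. The 3′ ends of Malat1, of the long form of Neat1 and of 7SK are known to lack an added poly(A) tail.

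Malat1 lies on GRCm38 chromosome 19 from 5795690 to 5802672, and Neat1 on the same strand of chromosome 19 from 5824708 to 5845478, with 22035 bases between them. Rn7sk lies on chromosome 9 from 78175303 to 78175633, on the minus strand in a single exon. Gm26917 lies on the plus strand of chromosome 17 from 39843013 to 39846341, and the next gene on that strand, Gm42418, starts after a gap of 616 bases. RefSeq gives Gm42418 as a synonym of Rn18s-rs5, a pseudogene related to 18S ribosomal RNA, at 39846354 to 39848202. On the other strand the rRNA gene CT010467.1 spans 39846353 to 39848827, across Gm42418. Its span begins 12 bases past the last base of Gm26917. Whether the row of Gm26917 holds reads of ribosomal RNA was not tested. The exons covered 6983 bases for Malat1, 20771 for Neat1, 331 for Rn7sk and 3329 for Gm26917. Guanine and cytosine made up 42.5% of Malat1, 47.3% of Neat1, 58.0% of Rn7sk and 69.1% of Gm26917.

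The start of 7SK is shown because it holds the site of its protein partner. The first 120 bases are printed from the GENCODE transcript in DNA letters (GRCm38, chr9:78175514-78175633, minus strand), and capitals mark each GATC. Copies of these letters in the first hairpin of 7SK are known as the place where Hexim1 binds, but not every marked copy need be such a site. GATC is its own reverse complement, so both strands give the same matches.
Rn7sk: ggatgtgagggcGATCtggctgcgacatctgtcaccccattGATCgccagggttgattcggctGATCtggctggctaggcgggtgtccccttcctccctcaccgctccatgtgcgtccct
The 3 matches start at bases 13, 42 and 64, counted from the 5′ end. Of 129282 transcripts with at least 331 bases, 7.99% held as many GATC matches in their first 331 bases.

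Since the kit selects RNA by its A residues, the longest run of A in each of the 4 transcripts is shown with 20 bases on each side, in transcript sense, with the run in capitals.
Malat1: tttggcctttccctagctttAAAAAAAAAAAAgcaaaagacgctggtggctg
Neat1: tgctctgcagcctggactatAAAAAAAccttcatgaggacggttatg
Rn7sk: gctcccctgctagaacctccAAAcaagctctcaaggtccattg
Gm26917: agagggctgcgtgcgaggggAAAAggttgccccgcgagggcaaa
Malat1 (chr19:5795968-5796019, minus strand) had a run of 12, which ended 298 bases before the 3′ end of the annotated transcript. Runs at least as long were found in 7.10% of 55341 annotated genes. Neat1 (chr19:5835914-5835960, minus strand) had a run of 7, matched or exceeded in 30.7% of genes. Rn7sk (chr9:78175385-78175427, minus strand) had 3 and Gm26917 (chr17:39845116-39845159, plus strand) had 4, lengths that 96.0% and 87.6% of genes reach. Whether such runs bear on how many reads a library holds was not tested.

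The libraries held 26177821 to 34311855 counts. Srf itself stood at 45.0 and 38.6 CPM (counts scaled by library total and TMM factor) in homozygous libraries, against 56.1, 64.4 and 68.3 CPM in heterozygous libraries. Its edgeR adjusted p was 0.115 and its DESeq2 adjusted p 0.00371. The 12 smooth muscle contractile markers summed to 17669 to 18217 CPM in homozygous and 29645 to 31429 CPM in heterozygous libraries, so muscle RNA was plentiful in every library, and fewer cells of a type and less RNA per cell cannot be told apart in such tissue. Markers of other cell types were present as well. Skeletal muscle markers summed to 1015 and 2756 CPM in homozygous libraries and to 685, 329 and 10.3 CPM in heterozygous libraries, where Myh4 and Pvalb were at 0 in at least 1 library. Heterozygous replicate 3, with the 10.3 CPM, lay at 1 end of the axis of greatest variance (51.6% of the total).

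Malat1 was the largest of the 4 by share of counts. It took 2.71% and 2.41% of counts in homozygous libraries, against 2.16%, 2.35% and 2.62% in heterozygous libraries, and it ranked as the gene with the second highest count in all 5. The groups overlapped, since heterozygous replicate 3 lay above homozygous replicate 3. Exact Clopper-Pearson 95% intervals, which cover counting error only, were at most 0.0122 percentage points wide for Malat1 and narrower for the other 3. Its level was 25074 ± 2110 CPM in homozygous (SD, n = 2) and 24180 ± 2964 CPM in heterozygous libraries (SD, n = 3). The log2 fold change, homozygous over heterozygous, was 0.05 (SE 0.159; edgeR adjusted p = 0.908). The 95% interval of the fold ran from 0.799 to 1.35, and the sign turned to -0.038 without homozygous replicate 2 and to -0.029 without heterozygous replicate 1.

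Neat1 separated the groups. It took 0.220% and 0.219% of counts in homozygous libraries, against 0.141%, 0.137% and 0.180% in heterozygous libraries. Both homozygous libraries lay above every heterozygous one, and heterozygous replicate 3 lay between. Its level was 2157 and 2146 CPM in homozygous libraries and 1391, 1395 and 1877 CPM in heterozygous libraries. The log2 fold change was 0.47 (SE 0.156), 1.38-fold, with an edgeR adjusted p of 0.224 and an unadjusted p of 0.0198. Over the 18192 genes tested, edgeR called 0 higher and 0 lower (0.0% each) at an adjusted p under 0.05, and 9.04% were higher at an unadjusted p under 0.05. Groups failed to overlap with homozygous higher for 17.4% of genes, so the separation seen for Neat1 is common in this table. DESeq2, which called 3.35% of genes higher, gave Neat1 an adjusted p of 0.0648. The edgeR fit without a low-count filter, which called 3.23% higher, gave 0.0167. Without heterozygous replicate 3 the log2 fold change was 0.64 (edgeR adjusted p = 0.0790). Between homozygous replicate 2 and heterozygous replicate 3 alone the difference was 0.20. Gene-level counts do not tell the short from the long form of Neat1, which start at the same end.

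**Figure D1:**
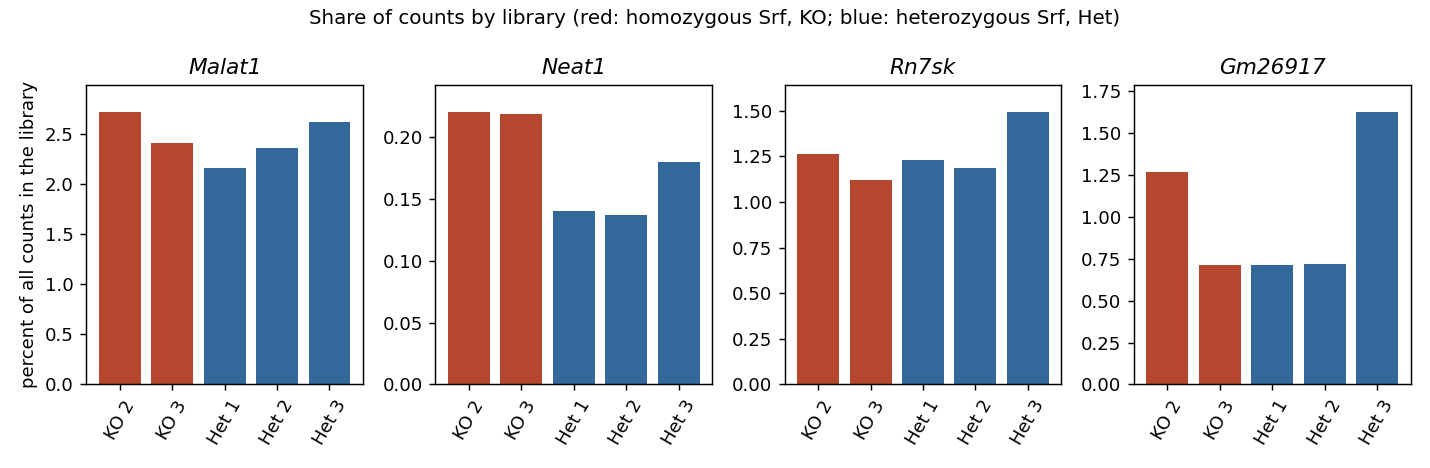
Percent of all counts in each library taken by each RNA, 1 bar per library, homozygous (KO) libraries in red and heterozygous (Het) in blue, each panel with its own axis from 0. Both homozygous libraries (0.220% and 0.219%) lie above the 3 heterozygous ones for Neat1, while heterozygous replicate 3 is highest for Rn7sk (1.49%) and Gm26917 (1.62%).

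Rn7sk took 1.26% and 1.12% of counts in homozygous libraries, against 1.23%, 1.19% and 1.49% in heterozygous libraries. The groups overlapped, and heterozygous replicate 3 stood alone at the top. Its level was 11659 ± 992 CPM in homozygous (SD, n = 2) and 13265 ± 1977 CPM in heterozygous libraries (SD, n = 3). The log2 fold change was -0.19 (SE 0.163; edgeR adjusted p = 0.636), with a 95% interval of the log2 fold change from -0.57 to 0.20, and it was -0.039 without heterozygous replicate 3. Of its 100-base words 61.2% also occur in transcripts of 3 other genes, so its value is uncertain where counting could split reads between copies. With 50-base words 7 such genes were found, and their rows held 0 to 815 counts per library, against 349648 to 407190 for Rn7sk. Of the counts in rows of the class misc_RNA, Rn7sk made up 99.0% to 99.4%.

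Gm26917 varied most between libraries of 1 genotype. It took 1.27% and 0.710% of counts in homozygous libraries, against 0.711%, 0.719% and 1.62% in heterozygous libraries. Homozygous replicate 2 and heterozygous replicate 3 were high, the other 3 libraries lay close together, and the groups overlapped. The highest library was 2.43 times the lowest in CPM, against 1.28 for Malat1, 1.55 for Neat1 and 1.42 for Rn7sk. The level was 9666 ± 3839 CPM in homozygous (SD, n = 2) and 10420 ± 5629 CPM in heterozygous libraries (SD, n = 3). The genotype difference in log2 was -0.11 (SE 0.431; edgeR adjusted p = 0.934). It turned to 0.25 without homozygous replicate 3 and to 0.45 without heterozygous replicate 3, and it was -0.59 without homozygous replicate 2. The 95% interval of the fold, from 0.458 to 1.88, was the widest of the 4. No 50-base word of Gm26917 occurred in the GENCODE transcript of another gene. The search covered annotated transcripts only, so copies elsewhere in the genome would not be found.

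Per length the order of levels changed. Rn7sk stood at 37341 and 33103 CPM per kilobase of exon in homozygous and at 36776, 36479 and 46970 in heterozygous libraries, the highest of 54471 genes in each of the 5 libraries. Malat1 followed among the 4 in 4 libraries, at 3804 and 3377 CPM per kilobase in homozygous and 3057, 3428 and 3903 in heterozygous libraries. Gm26917 stood at 3719 and 2088 in homozygous and at 2110, 2198 and 5082 in heterozygous libraries, so it passed Malat1 in heterozygous replicate 3. Neat1 had the lowest level per kilobase, 104 and 103 in homozygous and 67.0, 67.2 and 90.4 in heterozygous libraries. The spread of Malat1 over libraries overlapped that of Gm26917, while Rn7sk above them and Neat1 below them were separate in every library.

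Ratios within a library do not depend on scaling. For every Malat1 count there were 0.0812 and 0.0910 Neat1 counts in homozygous libraries, against 0.0652, 0.0583 and 0.0689 in heterozygous libraries. The ratio of Rn7sk to Neat1 was 5.73 and 5.11 in homozygous and 8.75, 8.65 and 8.28 in heterozygous libraries, without overlap. The ratio of Rn7sk to Malat1 was 0.465 and 0.465 in homozygous and 0.570, 0.504 and 0.570 in heterozygous libraries. In log2 the mean ratio of homozygous minus heterozygous libraries was 0.43 for Neat1 to Malat1, -0.66 for Rn7sk to Neat1 and -0.24 for Rn7sk to Malat1. Each gave p = 0.2 in a two-sided exact permutation test, the smallest value that 2 against 3 libraries allow, and 0.4 adjusted over the 6 pairs, so the design cannot reach 0.05. The other 3 ratios, all with Gm26917, overlapped between groups.

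Gm42418, the next gene on the same strand as Gm26917, and several short RNAs had the same high libraries, while CT010467.1 on the other strand did not. Gm42418 stood at 2191 and 968 CPM in homozygous and at 784, 856 and 3277 CPM in heterozygous libraries (log2 fold change -0.05, SE 0.659; edgeR adjusted p = 0.981). There were 5.65 and 7.18 counts of Gm26917 for every count of Gm42418 in homozygous libraries and 8.96, 8.55 and 5.16 in heterozygous libraries. Thus Gm42418 varied more widely than Gm26917. Rmrp, the RNA of RNase MRP, stood at 2799 and 2093 CPM in homozygous and 2493, 2593 and 3694 CPM in heterozygous libraries. Rows of the class snRNA took 0.105% and 0.0826% of counts in homozygous libraries and 0.0707%, 0.0708% and 0.117% in heterozygous libraries, and snoRNA rows 0.0582% and 0.0473% against 0.0433%, 0.0433% and 0.0614%. In each of these, as in Gm26917, the top 2 libraries were heterozygous replicate 3 and homozygous replicate 2. The same 2 were the top for Malat1 (27257 and 26566 CPM) and Rn7sk (15547 and 12360 CPM). They were also the top for the protein-coding gene Map3k6 (68.2 and 42.1 CPM). The share of all genes with these top libraries was not counted. The sample descriptions give those 2 libraries consecutive numbers. What the numbers stand for is not stated, and their part in the level of Gm26917 was not tested beyond a fit with a term for them.

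**Figure D2:**
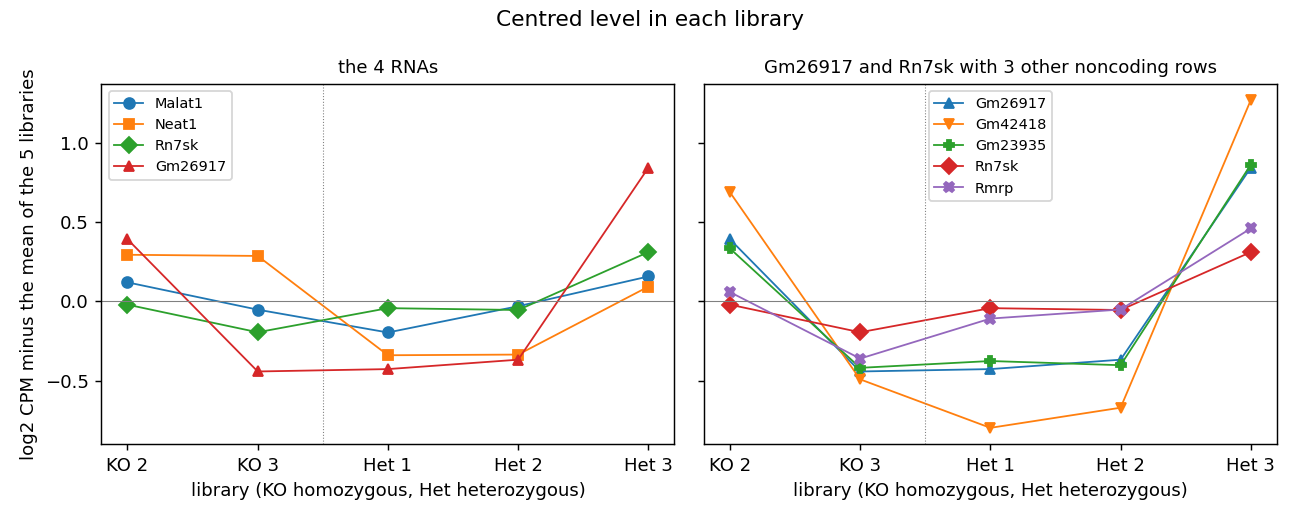
Log2 CPM in each library minus the mean over the 5 libraries, for the 4 RNAs (left panel) and for Gm26917 and Rn7sk with Gm42418, Gm23935 and Rmrp (right panel), homozygous (KO) libraries left of the dotted line. Gm26917, Gm42418 and Gm23935 are highest in heterozygous replicate 3 and next highest in homozygous replicate 2, while Neat1 is highest in both homozygous libraries.

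Genes with the most similar course over the 5 libraries were sought among 9661 genes with a mean of at least 10 CPM, by the root mean square difference of centred log2 CPM. Closest to Gm26917 came Gm23935 (0.040), Map3k6 (0.13) and Gm24270 (0.14), against a median of 0.55. Gm23935 and Gm24270 are annotated as miRNA genes of 57 bases on chromosomes 16 and 9. Gm23935 was also placed on the list of rows related to ribosomal RNA. Gm23935 stood at 85.4 and 50.7 CPM in homozygous and at 52.3, 51.3 and 123 CPM in heterozygous libraries. Closest to Neat1 came C1qb, a complement component of macrophages (0.057), Ildr2 (0.066) and the mitochondrially encoded mt-Co1 (0.068), against a median of 0.33. For Malat1 they were Rtkn (0.012), Mbd1 (0.026) and Atg4d (0.029), and for Rn7sk Zfp592 (0.010), Fam117b (0.015) and Cramp1l (0.016). None of the 4 RNAs was among the nearest of another. Malat1 and Rn7sk were the most alike pair (0.13) and Neat1 and Gm26917 the least (0.47).

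C1qb stood at 34.7 and 34.6 CPM in homozygous libraries and at 22.0, 20.5 and 27.8 CPM in heterozygous libraries, and mt-Co1 at 9976 and 9548 CPM against 5702, 6525 and 8566 CPM. Both were picked for their likeness to Neat1. Their shared order of groups, with heterozygous replicate 3 between them, follows from that choice and is no separate observation. The 10 macrophage markers, C1qb among them, summed to 417 and 554 CPM in homozygous and to 303, 264 and 347 CPM in heterozygous libraries. Of these markers 9 of 10 lay higher in homozygous libraries without overlap, where 17.4% of all genes did. None was at 0 in any library. Brown adipocyte markers summed to 1085 and 1002 CPM in homozygous and to 351, 687 and 270 CPM in heterozygous libraries. Of them 7 of 8 were higher without overlap, set against the same 17.4% of all genes. So were 10 of 12 skeletal muscle, 7 of 9 adipocyte and 4 of 6 Schwann cell markers. It was 2 of 8 for adventitial fibroblast, 1 of 10 for endothelial, 0 of 12 for smooth muscle contractile and 0 of 5 for erythrocyte markers. Lower without overlap were 12 of 12 smooth muscle contractile and 4 of 5 erythrocyte markers, where 18.2% of all genes were. Erythrocyte markers summed to 23.9 and 28.9 CPM in homozygous and to 37.9, 297 and 87.6 CPM in heterozygous libraries. The part of these cell types in the level of Neat1 was not tested.

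Genes next to Malat1, Neat1 and Rn7sk are given for their values alone, and no difference from the RNA beside them was tested. Ltbp3, near Malat1, had a log2 fold change of 0.03 (SE 0.0896), and Frmd8, on the far side of Neat1, -0.01 (SE 0.104). Beside Rn7sk, Ick gave -0.12 (SE 0.0943), Fbxo9 0.09 (SE 0.0848) and the lincRNA C920006O11Rik -0.49 (SE 0.264), while Gsta4, a glutathione transferase, stood at 7.92 and 11.1 CPM in homozygous and 4.49, 5.01 and 2.82 CPM in heterozygous libraries. Homozygous over heterozygous, this came to 1.20 in log2 (SE 0.266), with adjusted p of 0.123 by edgeR and 0.00329 by DESeq2.

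The 18 genes of the 7SK particle, P-TEFb and pausing factors, which work with 7SK, had a median log2 fold change of -0.10, beside -0.02 for all genes tested. Without heterozygous replicate 3 it was -0.025, beside 0.012 for all genes, and scaled by total counts -0.049, beside 0.035. edgeR called 0 of 18 at an adjusted p under 0.05, as for all genes, and DESeq2 called 0. At an unadjusted p under 0.05 edgeR gave 0 higher and 1 lower, where 6.75% of all genes were lower. That 1 was Supt5, a subunit of the pausing factor DSIF, at 127 and 120 CPM in homozygous and 141, 154 and 175 CPM in heterozygous libraries (log2 fold change -0.34, SE 0.116; edgeR adjusted p = 0.229). Groups did not overlap for 1 gene with homozygous higher and 6 with homozygous lower, against 17.4% and 18.2% of all genes. The most abundant members, Aff4 and Aff1 of the super elongation complex, had log2 fold changes of -0.16 (SE 0.101) and -0.49 (SE 0.224).

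Of the paraspeckle proteins, the partners of Neat1, all 20 were tested. Their median was -0.11, with 4 above 0. It was -0.038 without heterozygous replicate 3, beside 0.012 for all genes, and -0.053 scaled by total counts, beside 0.035. Of the 20, 0 were called by edgeR or by DESeq2 and 0 at an unadjusted p under 0.05. Groups did not overlap for 6 with homozygous lower and 0 with homozygous higher, against 18.2% and 17.4% of all genes. Hnrnpk, an RNA-binding protein needed for paraspeckles, stood at 226 and 254 CPM in homozygous and 261, 259 and 253 CPM in heterozygous libraries, which overlap. Hnrnpr gave -0.25 (SE 0.113). The 24 nuclear speckle proteins had a median of -0.12, with 22 below 0. Again 0 were called by either tool and 0 at an unadjusted p under 0.05. Of the 24, 7 were lower and 0 higher in homozygous libraries without overlap, against the same shares of all genes. Without heterozygous replicate 3 the speckle median was -0.00033, beside 0.012 for all genes, so its distance from 0 rests on this library. Scaled by total counts it was -0.064, beside 0.035 for all genes. Son, a scaffold of speckles, stood at 883 and 892 CPM in homozygous libraries and at 928, 859 and 1129 CPM in heterozygous libraries, with the highest value in heterozygous replicate 3. Srrm2, the other scaffold, gave -0.17 (SE 0.166). Among 12 tested subunits of RNase P and tRNase Z, the enzymes that cut Malat1 and free a small RNA from its 3′ end, the median was -0.02. edgeR and DESeq2 called 0. Where 6.75% of all genes were lower at an unadjusted p under 0.05 in edgeR, 1 of the 12 was. This was Pop1 (log2 fold change -0.43, SE 0.178; edgeR adjusted p = 0.309), while the most abundant, the tRNase Z genes Elac2 and Elac1, gave 0.12 (SE 0.102) and -0.15 (SE 0.105). The median was -0.17 without homozygous replicate 3 and 0.012 without homozygous replicate 2.

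The machinery of RNA polymerase III, which makes 7SK and Rmrp, had a median of -0.03 over 28 genes. edgeR and DESeq2 called 0, and at an unadjusted p under 0.05 there were 1 higher and 3 lower, where 9.04% of all genes were higher and 6.75% lower. The most abundant were Gtf3c1 (-0.03, SE 0.0878), whose groups overlapped, and Bdp1 (-0.22, SE 0.115), both parts of the initiation machinery. The lower ones were Gtf3c4 (-0.24, SE 0.0898), Snapc2 (-0.32, SE 0.120) and Maf1, a repressor of the polymerase (-0.21, SE 0.0849), and the higher one was the subunit Polr3g (0.61). The 22 genes of RNA polymerase I and the nucleolus had a median of -0.12. Here too edgeR and DESeq2 called 0, while 3 were lower at an unadjusted p under 0.05, against 6.75% of all genes, and 9 did not overlap with homozygous lower, against 18.2%. The median was -0.072 scaled by total counts, beside 0.035 for all genes, and -0.077 without homozygous replicate 2, beside -0.016. Ncl, nucleolin, stood at 116 and 132 CPM in homozygous and 157, 143 and 152 CPM in heterozygous libraries (-0.28, SE 0.101; edgeR adjusted p = 0.249). Ubtf, a polymerase I factor that was next in abundance, gave -0.01 (SE 0.0900). Taf1a gave -0.30 (SE 0.0918) and Nop58 -0.24 (SE 0.0933).

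**Figure D3:**
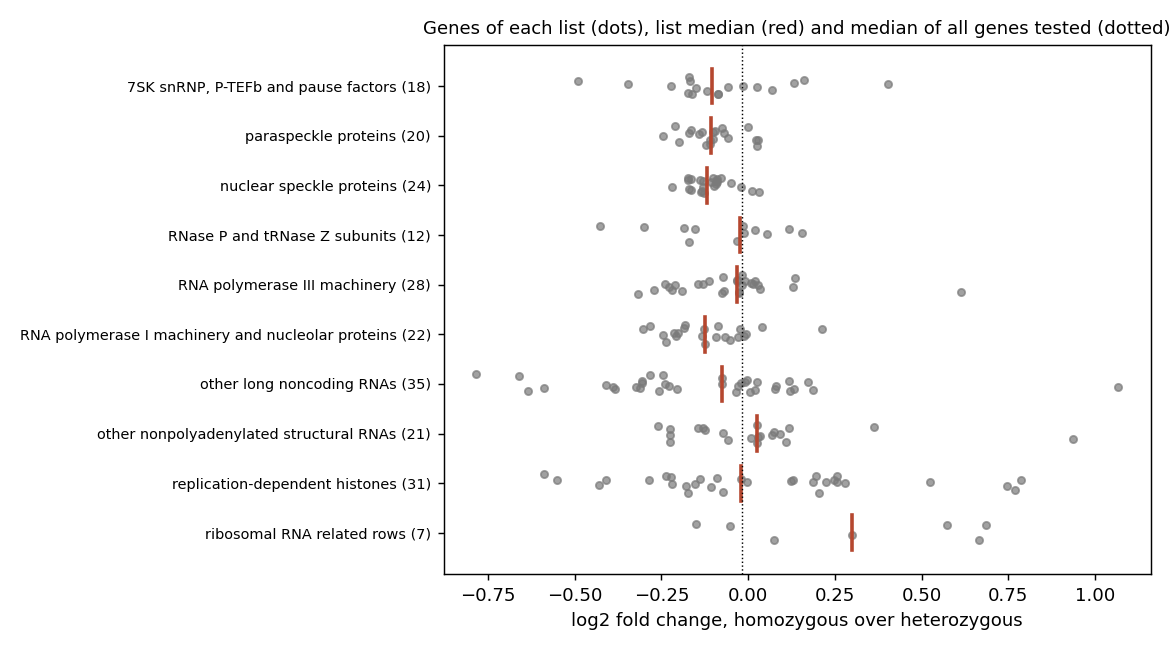
Log2 fold change, homozygous over heterozygous, of each tested gene (dot) in 10 lists, with the number tested in parentheses, the list median in red and the median of all 18192 genes dotted. Paraspeckle and nuclear speckle medians lie at -0.11 and -0.12, near the dotted line at -0.02, and the rows related to ribosomal RNA reach 0.69.

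Other long noncoding RNAs had a median of -0.08 over 35 genes. Leaving out heterozygous replicate 3 gave -0.024, and leaving out homozygous replicate 2 gave -0.24. edgeR called 0, with 0 higher and 4 lower at an unadjusted p under 0.05 (6.75% of all genes were lower), and DESeq2 called 0 higher and 3 lower, where it called 2.62% of all genes lower. Snhg18, a small nucleolar RNA host gene, stood at 38.1 and 39.8 CPM in homozygous and 51.3, 52.2 and 49.5 CPM in heterozygous libraries (log2 fold change -0.39, SE 0.0846; DESeq2 adjusted p = 0.0127). Peg13, an imprinted RNA, gave -0.31 (SE 0.0853; DESeq2 adjusted p = 0.0370). Dnm3os, the host of miR-199a and miR-214, stood at 31.4 and 27.1 CPM in homozygous and 43.5, 38.1 and 69.7 CPM in heterozygous libraries (-0.78, SE 0.254; DESeq2 adjusted p = 0.0439). The fourth at the unadjusted threshold was Snhg8 (-0.32). Kcnq1ot1, the most abundant, gave 0.08 (SE 0.106), and Meg3 -0.08 (SE 0.188). Malat1, Neat1 and Gm26917 together made up 86.9% to 88.8% of the counts of the class lincRNA.

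Lists of RNAs that typically carry no poly(A) tail held counts in every library. Gene-level counts do not tell whether the RNA counted had a tail. Of 33 listed structural RNAs 21 were tested, with a median of 0.02, 0 called by edgeR or DESeq2 and 1 higher at an unadjusted p under 0.05, where 9.04% of all genes were. The median turned to -0.16 without homozygous replicate 2 and was 0.19 without heterozygous replicate 3. Rmrp, the most abundant, gave -0.26 (SE 0.213; edgeR adjusted p = 0.615), and Snora73b -0.14 (SE 0.240). The higher one was Rnu73b, at 0.566 and 0.584 CPM in homozygous and 0.215, 0.297 and 0.398 CPM in heterozygous libraries. Replication-dependent histone genes had a median of -0.02 over 31 tested, with 0 called by either tool and 2 higher at an unadjusted p under 0.05, Hist1h1b (0.77) and Hist1h2ak (0.75), again against 9.04%. Their median ran from -0.10 to 0.11 with each library left out. Hist1h1c stood at 53.9 and 54.9 CPM in homozygous and 71.4, 58.8 and 51.3 CPM in heterozygous libraries, which overlap, as did those of Hist1h1e (SE 0.153 around a log2 fold change near 0).

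Rows related to ribosomal RNA differed among themselves. Their list holds not only ribosomal RNA genes but also Lars2 and Gm23935, the latter annotated as a miRNA gene. Of 7 tested, edgeR called 0, with 3 higher at an unadjusted p under 0.05 (9.04% of all genes), and DESeq2 called 3 higher (3.35% of all genes). Their median was 0.30, and it was 0.68 without heterozygous replicate 3 and -0.060 with the label-number term. mt-Rnr2 and mt-Rnr1, the mitochondrial ribosomal RNAs, gave log2 fold changes of 0.69 (SE 0.198; DESeq2 adjusted p = 0.00719) and 0.66 (SE 0.215; DESeq2 adjusted p = 0.0368). CT010467.1, on the strand opposite Gm26917, stood at 81.6 and 113 CPM in homozygous and 58.7, 64.1 and 73.2 CPM in heterozygous libraries (0.57, SE 0.158; DESeq2 adjusted p = 0.0317). Both homozygous libraries lay above all heterozygous ones, whereas Gm26917 and Gm42418, on the plus strand, were highest in heterozygous replicate 3. Gm42418 held 25483 to 82371 counts per library, while CT010467.1, which spans it, held 1840 to 3668. The strand setting of the counting is not stated, and its part in these rows was not tested.

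**Figure D4:**
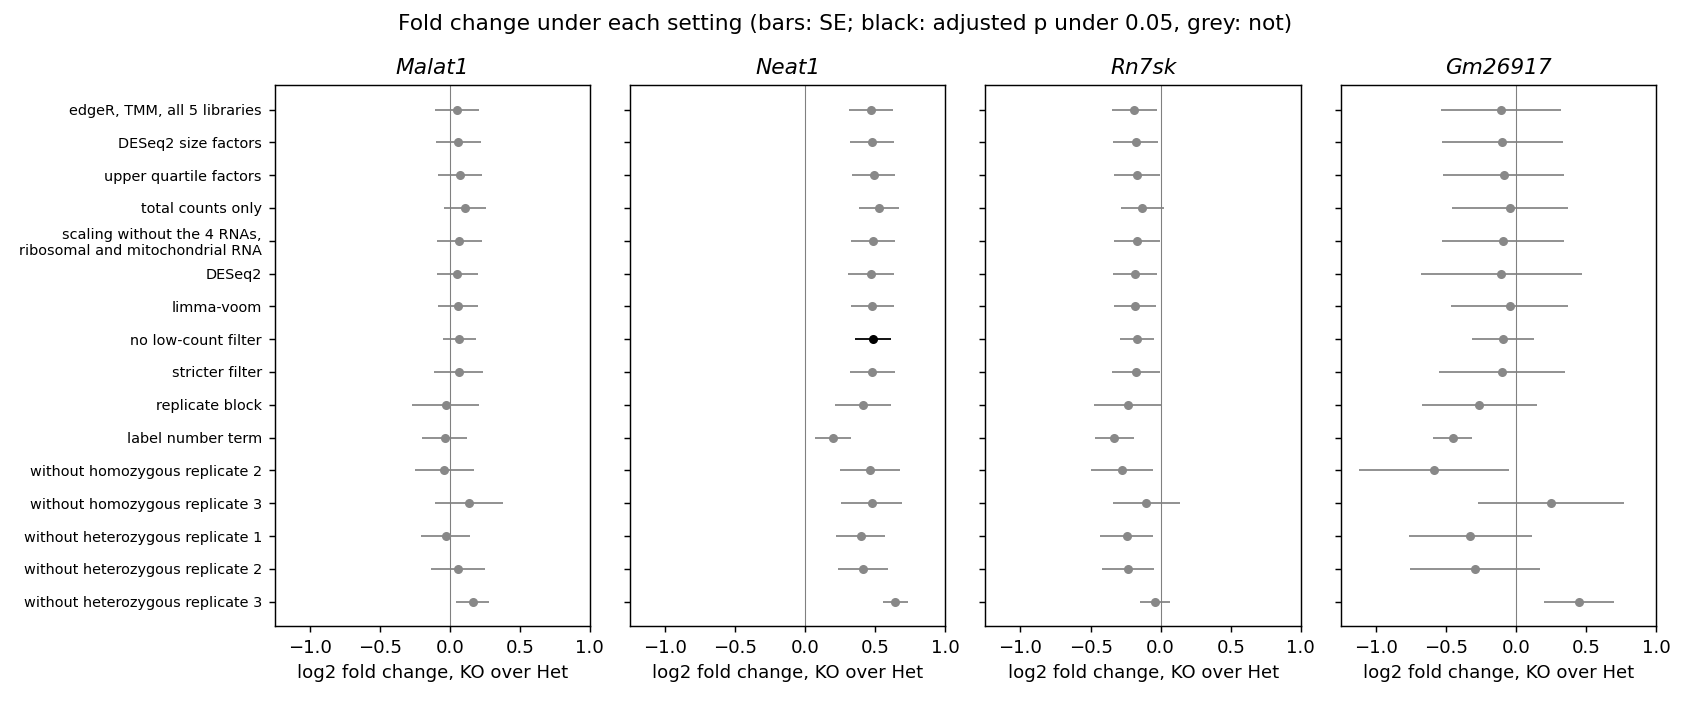
Log2 fold change, homozygous over heterozygous, of each RNA under the 16 settings tried, with SE as bars, and black where the adjusted p was under 0.05. Neat1 stays above 0 in each (0.20 to 0.64) and is black without the low-count filter alone, Rn7sk stays below 0 (-0.33 to -0.039), and Malat1 and Gm26917 cross 0.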

How the data were processed

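The authors deposited unnormalized counts, 1 row per gene symbol (55453) and 1 column per library (5), whose names match descriptions in the labels. The submitters' processing notes list STAR 2.7.0f, fastp 0.20.0, Subread 1.6.4 with featureCounts, and GRCm38. Per the labels, the library kit was TruSeq Stranded mRNA. No source used here states the annotation release, the strand setting or the handling of multi-mapping reads. Multi-mapping bears on Rn7sk and on rows near ribosomal RNA.

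Lengths, positions and sequences came from GENCODE mouse release 21 on GRCm38, in which 54471 symbols matched a single gene. Genes passing filterByExpr (18192) were scaled by TMM and tested with the quasi-likelihood F test of edgeR 4.0.16 (R 4.3.3) on genotype alone, adjusted by the Benjamini-Hochberg method over all genes at 0.05. Degrees of freedom were 3 residual plus 4.01 prior, and the biological coefficient of variation 15.8%. SE is the log2 fold change over the square root of F, and 95% intervals use both kinds of degrees of freedom. DESeq2 1.42.0 and limma-voom (limma 3.58.1) were alternatives.

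The 4 RNAs and the 10 gene lists were chosen with earlier results of these data known. Named from each list by rule were the 2 most abundant genes and up to 3 others with the lowest p among those with an unadjusted p under 0.05, and for each RNA the 3 genes nearest in course and genes beside it that passed the filter, some of which are not reported here. Of markers mainly sums and counts of genes without overlap are given. Gm23935, C1qb and mt-Co1 came by that rule, while Gm42418, CT010467.1, Rmrp, Gm24447 and the classes of snRNA and snoRNA were also looked at after their values were seen. Aortae were frozen individually, per the labels, and counts differed beyond sampling noise between every pair. Polr3g and Snhg8 were named after their values were seen.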

Additional observations from a re-analysis of the deposited data

How the results depend on the processing

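Neat1 kept a positive and Rn7sk a negative log2 fold change under all 16 settings, with adjusted p from 0.0167 to 0.637 and from 0.307 to 0.921 (DESeq2 and limma-voom included). Neat1 passed the threshold only with no low-count filter (0.48, adjusted p = 0.0167), where prior degrees of freedom were 29.5 instead of 4.01. With each library left out, Neat1 ranged from 0.40 to 0.64, Rn7sk from -0.28 to -0.039, Malat1 from -0.038 to 0.16 and Gm26917 from -0.59 to 0.45. Titles share replicate numbers 2 and 3, but same-numbered libraries did not deviate together (correlations of -0.18 and -0.37 over 9662 genes). With only 2 homozygous libraries, their deviations from the group mean mirror each other. These correlations therefore cannot decide whether the numbers are a pairing. A replicate block gave -0.029 for Malat1, 0.41 for Neat1, -0.24 for Rn7sk and -0.26 for Gm26917, with 3 genes called higher and 2 lower. A term for the label numbers, added after the data were seen, rests on homozygous replicate 2 against heterozygous replicate 3 and gave -0.037 for Malat1, 0.20 for Neat1, -0.33 for Rn7sk and -0.45 for Gm26917, with 8 called higher and 1 lower. Over all genes the calls were 524 higher and 411 lower by DESeq2, 982 and 432 by edgeR without a low-count filter, and 0 and 1 by limma-voom. With each library left out edgeR called 0 to 139 higher and 0 to 9 lower, the most without heterozygous replicate 2, and a lone homozygous library is then assumed to vary like the others. Over left-out libraries the log2 ratios ranged from -0.43 to 0.23 for Gm26917 to Malat1 and from -0.19 to 0.47 for Gm26917 to Rn7sk. Of 150 alternative list medians 12 moved by more than the spread between replicates. Among them were nuclear speckle proteins (-0.29 with the label-number term) and RNA polymerase III (0.020 scaled by total counts, against -0.03 as reported). Total-count scaling also moved the median of all genes, from -0.02 to 0.035, so the list of RNA polymerase III moved with them. Counting error is small at this depth, so the number of libraries limits precision. The causes were not tested.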

Other observations

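Gm24447, a misc_RNA gene of 338 bases on chromosome 15 that shares 192 of the 282 50-base words of Rn7sk, held 815 counts in homozygous replicate 2 and 14 in homozygous replicate 3, against 4, 7 and 6 in heterozygous libraries. The fitted log2 fold change of 6.25 (edgeR adjusted p = 0.140; DESeq2 adjusted p = 0.00611) was 1.18 without homozygous replicate 2 (edgeR adjusted p = 0.569). Rn7sk itself was not highest in that library, at 1.26% of its counts.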
